A study of Rattus norvegicus with 9 samples.

Results

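The polypyrimidine tract-binding proteins are encoded in the rat by Ptbp1, Ptbp2 and Ptbp3, and 4 of the 31099 probe sets on the arrays carry 1 of these symbols alone. The members were found by gene symbol in the platform annotation. Ptbp1 has 1 probe set (1367931_a_at), Ptbp2 has 1 (1375844_at) and Ptbp3 has 2 (1382005_at and 1387432_at). The family was chosen by the mutant and wild-type intensities of 1382005_at, called the bright Ptbp3 probe set here, while 1387432_at is called the dim one. All values of that comparison are therefore given for the members as a description, with intervals and without a test.

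The tissue was ventral spinal cord, taken from rat embryos at embryonic day 14, and each of the 9 arrays carried total RNA of 1 pool of 5 embryos. In 4 pools the embryos bore a mutant human SOD1 transgene, G93R, in 4 others its wild-type form, and the remaining pool served as the negative control, with SDneg in its title. The description of that control also speaks of positive embryos, against its title; it was used as the negative control. SOD1 is a superoxide dismutase, mutated in some families with amyotrophic lateral sclerosis, in which motor neurons die. Each transgene came with its own source name in the titles, so that mutation, rat line, insertion site and source cannot be told apart. The sources used here do not name the promoter of either transgene. Replicates 2, 3 and 4 of both transgenic groups bear the tag le2 in their titles, a tag that the sources do not explain, while replicate 1 of each and the control lack it.

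PTB proteins bind stretches rich in pyrimidines in RNA through several RNA recognition motifs. At such sites near an exon they mostly repress its inclusion, and they also act on the stability and translation of messenger RNA. Ptbp1 is the form of progenitors and most other dividing cells. When neurons are born its level drops and Ptbp2, the neuronal form, takes over, before Ptbp2 falls in turn as neurons mature. Ptbp3, first described as Rod1, is best known from blood cells and overlaps with Ptbp1 in the exons it represses. The arrays measured the RNA of these genes and not the splicing of their targets. In whole tissue, fewer cells of a type and less RNA per cell cannot be told apart.

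The median intensity of an array was 31.0 at the lowest and 33.9 at the highest, and any pair of arrays correlated over probe sets at 0.976 to 0.986. The neuronal markers were bright, with Tubb3 at 3001 ± 101 (SD, n = 4) in mutant and 2849 ± 182 in wild-type pools. All 10 neuronal genes of the list and the 5 motor neuron genes with a probe set lay above the intensity filter, a mean intensity of about 17.3. Among floor plate genes Shh and Foxa2, which define it, were below the filter. Ntn1, at 60.2 ± 14.2 in mutant and 61.1 ± 9.16 in wild-type pools, and Spon1, at 319 ± 15.2 and 339 ± 50.3, were above it. Of 12 progenitor genes 7 were above the filter, and Olig2 was below it. The blood genes Hbb, Alas2, Slc4a1 and Ptprc and all 5 microglial genes lay below it too. The 3'/5' ratio of beta-actin, which rises as RNA is degraded or shortened, ran from 6.98 to 7.98 in mutant pools and from 8.19 to 19.2 in wild-type pools, and was 6.66 in the negative control. It thus differed between the same groups of pools as Ptbp3 does (two-sided exact permutation test, p = 0.0286, the lowest possible with 70 arrangements), and the highest ratio was that of wild-type replicate 2. The negative control, at 6.66, lay below all mutant pools in this ratio but inside the wild-type range on the bright Ptbp3 probe set. The Gapdh ratio overlapped between the groups, from 2.49 to 2.587 in mutant and from 2.585 to 3.56 in wild-type pools, with 2.68 in the control (two-sided exact permutation test, p = 0.0571).

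Ptbp3 was lower in every mutant pool than in any wild-type pool on its bright probe set. Its intensities were 751, 781, 647 and 621 in mutant replicates 1 to 4. In wild-type replicates 1 to 4 they were 1431, 1463, 1338 and 1159, and in the negative control 1213. The highest mutant pool thus stayed under the lowest wild-type pool, which was 1.48 times as bright, while the negative control lay inside the wild-type range. Group means were 699.9 ± 77.8 and 1348 ± 137 (SD, n = 4 each), so the mutant mean was 51.9% of the wild-type mean. On the log2 scale mutant pools differed by −0.94, and the 95% interval of limma's moderated estimate ran from −1.15 to −0.73.

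The difference was of like size within the pools that share a tag. Among the 3 pools per group with the tag le2, mutant pools averaged 683 and wild-type pools 1320.1, or 51.7%. In the single pools without it, 751 stood against 1431, or 52.5%. With the actin ratio as a covariate the log2 difference was −0.84 (95% interval −1.09 to −0.59). Since that ratio did not overlap between the groups, no fit of them with it, here or below, can tell ratio from group. Without wild-type replicate 2, the pool with the highest actin ratio, the log2 difference was −0.90 (−1.12 to −0.67). Leaving out any 1 of the 8 pools gave values between −1.01 and −0.88. Of the 18625 probe sets in the fit, 0.0698% had a larger absolute difference than this one. That rank follows from the choice of the family by this comparison.

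**Figure D1:**
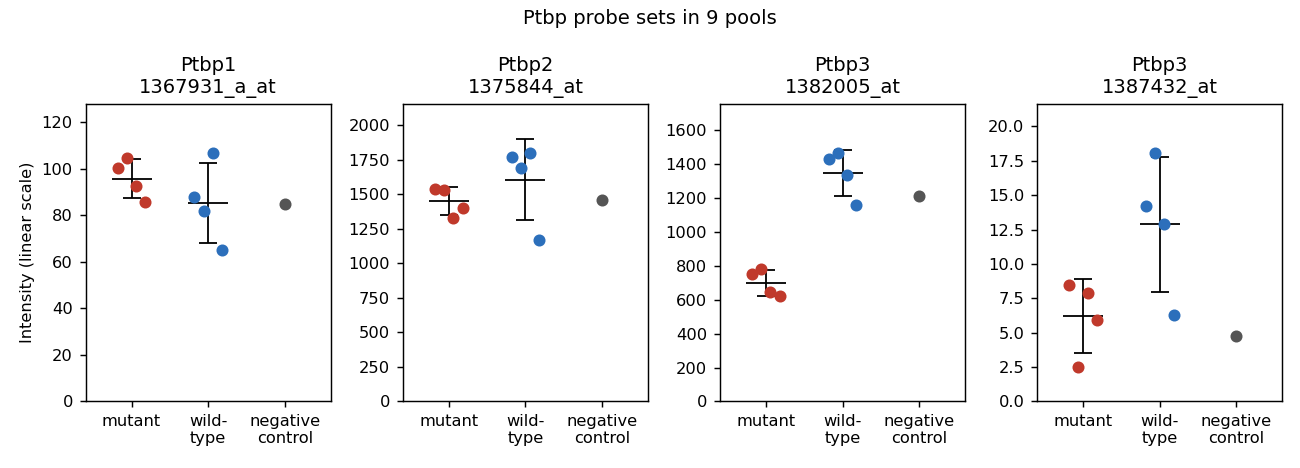
Intensity of the 4 Ptbp probe sets on the linear scale (y axis, from 0, a separate scale per panel) in 4 mutant, 4 wild-type and 1 negative control pool (x axis). Points are pools in the order of their replicate numbers, and bars give mean and SD. On the bright Ptbp3 probe set the mutant pools lie between 621 and 781 and the wild-type pools between 1159 and 1463; the groups overlap on the other 3 probe sets.

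The second Ptbp3 probe set was dim and gave a less certain picture. Its intensities were 8.46, 2.54, 7.92 and 5.89 in mutant replicates 1 to 4. Those of wild-type replicates 1 to 4 were 14.2, 18.0, 12.9 and 6.28, and the negative control had 4.75. Unlike on the bright one, the groups overlapped through wild-type replicate 4, the negative control lay among the mutant pools, and the mean fell below the filter. On the log2 scale mutant pools differed from wild-type pools in the fit without a filter by −0.54 (95% interval −1.02 to −0.05). This size depends on the constant added before taking logs, being −0.85 with a pseudocount of 2.06 and −0.22 with 33.0, against 8.25 otherwise. By its accession in the annotation the dim probe set reads the Ptbp3 reference messenger RNA and the bright one an expressed sequence tag. Which part of the transcript each reads was not tested.

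Ptbp1, the form of progenitors, overlapped between the groups. Its probe set had intensities of 100.5, 104, 92.4 and 85.5 in mutant replicates 1 to 4. Wild-type replicates 1 to 4 had 87.7, 81.8, 107 and 65.1, and the negative control had 85.1. Both the highest and the lowest pool were wild-type, and all mutant pools lay between them. The means were 95.7 ± 8.45 in mutant and 85.3 ± 17.1 in wild-type pools, so that mutant pools differed by 0.17 on the log2 scale (95% interval −0.14 to 0.47). Without wild-type replicate 4 the difference was 0.06 (−0.24 to 0.35), and without wild-type replicate 3 it was 0.27 (−0.03 to 0.57). The gene table also lists 6 pseudogenes of Ptbp1, and whether this probe set reads their RNA was not tested.

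Ptbp2, the neuronal form, overlapped as well. Its intensities were 1534, 1530.1, 1329 and 1397 in mutant replicates 1 to 4. They were 1766, 1688, 1796 and 1169.6 in wild-type replicates 1 to 4, and 1455 in the negative control. Of the 4 wild-type pools 3 lay above every mutant pool, and the remaining one, replicate 4, lay below them all. Group means of 1447 ± 101 in mutant and 1605 ± 294 in wild-type pools gave a log2 difference of −0.13 (95% interval −0.39 to 0.13). This value rests much on wild-type replicate 4, without which it was −0.27 (−0.44 to −0.11). Without wild-type replicate 1 it was −0.08 (−0.36 to 0.20), and without wild-type replicate 3 it was −0.07 (−0.34 to 0.21). With the actin ratio as a covariate it was −0.05 (−0.37 to 0.27).

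Across the 4 probe sets, mutant and wild-type pools failed to overlap at 1, the bright Ptbp3 probe set, where 2.96% of all tested probe sets did so in either direction. That comparison chose the family, and the count is printed as a description. As background, limma called 3 of all 18625 tested probe sets in this comparison at an adjusted p under 0.05, 0.0161%, and no call is read for the members.

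Replicates differed more in wild-type than in mutant pools for Ptbp1 and Ptbp2. The coefficient of variation of Ptbp1 was 8.83% over mutant and 20.1% over wild-type pools, and that of Ptbp2 was 7.01% and 18.3%. For Ptbp2 the wider wild-type spread rests on replicate 4, at 1169.6 against 1688 to 1796 in the other wild-type pools. How many of all probe sets spread more in wild-type pools was not counted. For the bright Ptbp3 probe set it was 11.1% and 10.2%, and for the dim one 43.2% and 38.1%. Wild-type replicate 4 was the lowest wild-type pool on all 4 probe sets. The median departure of that array from the wild-type mean over tested probe sets was 0.02 on the log2 scale. All arrays share a common mean after trimming, so a small departure was largely set by the scaling. Whether that array was dimmer before scaling cannot be told from it. In mutant pools, replicate 4 was lowest for Ptbp1 and on the bright Ptbp3 probe set, replicate 3 for Ptbp2 and replicate 2 on the dim Ptbp3 probe set.

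Ratios taken within a pool remove what moves both members together. Each ratio was set to 1 in the negative control, since levels of different probe sets cannot be set against each other. The ratio of Ptbp3, on its bright probe set, to Ptbp1 was 0.512 ± 0.0156 in mutant against 1.13 ± 0.175 in wild-type pools (SD, n = 4 each). It ran from 0.491 to 0.524 in the former and from 0.88 to 1.25 in the latter. Ptbp3 over Ptbp2 was 0.579 ± 0.0332 in mutant against 1.02 ± 0.125 in wild-type pools. Its highest mutant value was 0.612 and its lowest wild-type value 0.894. For Ptbp3 both ratios therefore stood apart between the groups, as its level did.

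The ratio of the neuronal to the progenitor form, Ptbp2 over Ptbp1, was 0.886 ± 0.0509 in mutant against 1.10 ± 0.105 in wild-type pools. Mutant pools ran from 0.841 to 0.955 and wild-type pools from 0.984 to 1.21, so the groups did not overlap although each gene by itself did. On the log2 scale the ratio was lower in mutant pools by a difference of −0.31. When each of the other tested probe sets was divided by that of Ptbp1, 3.36% gave groups that did not overlap, and 1.3% did when divided by that of Ptbp2. These ratios rest on the pools that chose the family and are a description.

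**Figure D2:**
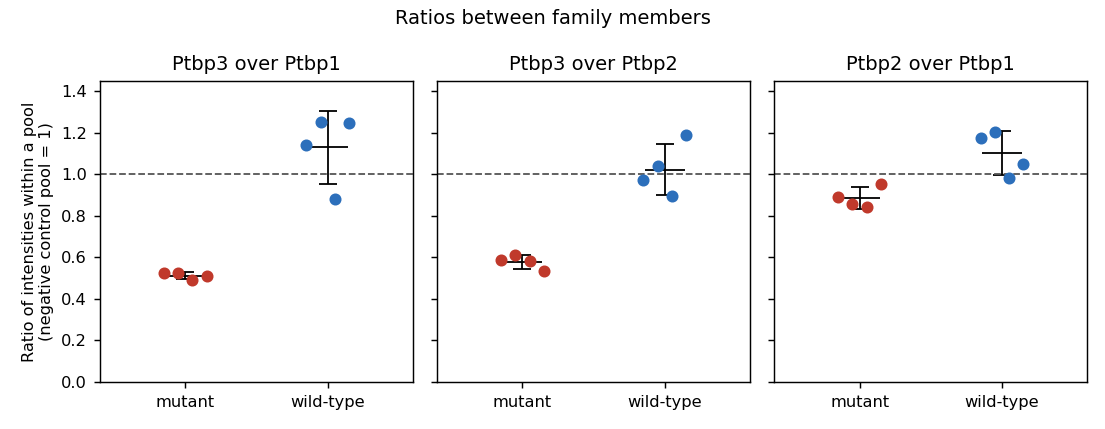
Ratio of intensities of 2 members within each pool, set to 1 in the negative control pool (dashed line; y axis, linear from 0), for 4 mutant and 4 wild-type pools (x axis). Points are pools, and bars give mean and SD. Ptbp3 over Ptbp1 lies between 0.491 and 0.524 in mutant and between 0.88 and 1.25 in wild-type pools, and Ptbp2 over Ptbp1 shows a smaller gap, from 0.955 to 0.984.

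Against the negative control, the mean of both transgenic groups is a contrast whose estimate the choice of the family did not use. Its SE, however, rests on the same spread within the groups as the comparison that chose the family. The contrast was tested in a joint fit of the 9 arrays, which assumes that the lone control pool varies like the others. By limma 0 of 18625 probe sets passed, 0%, with 581, 3.12%, at an unadjusted p under 0.05. The bright Ptbp3 probe set was lower in the transgenic mean with a value of −0.32 on the log2 scale (SE 0.147; 95% interval −0.64 to −0.01). Its limma adjusted p was 1.00, and 5 of 8 transgenic pools lay below the control. Those 5 were the 4 mutant pools and wild-type replicate 4. Ptbp1 differed by 0.07 (95% interval −0.39 to 0.53, limma adjusted p = 1.00), with 6 of 8 pools above the control. For Ptbp2 the difference was 0.05 (−0.33 to 0.44, limma adjusted p = 1.00), with 5 of 8 above. The dim Ptbp3 probe set differed by 0.40 (−0.32 to 1.12, limma adjusted p = 1.00 without a filter), with 7 of 8 above. All 8 transgenic pools lay on 1 side of the control at 0 of the 4 probe sets, against 19.7% of all tested probe sets.

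Taken apart, the groups stood differently to the control for Ptbp3. On the bright probe set mutant pools were below it by a log2 difference of −0.79 (95% interval −1.13 to −0.46), and all 4 lay below, as they did at 19.5% of all tested probe sets. Wild-type pools differed by 0.15 (−0.19 to 0.48), with 3 of 4 above. Levels on this probe set thus ran in the order mutant, negative control, wild-type, and the last pair did not differ beyond the spread of the wild-type pools. On the dim one, mutant pools differed from the control by 0.13 (−0.63 to 0.89) and wild-type pools by 0.67 (−0.09 to 1.43). The order there was negative control, mutant, wild-type, so that the 2 probe sets of Ptbp3 placed the control differently. Ptbp1 differed from the control by 0.15 in mutant and −0.01 in wild-type pools, and Ptbp2 by −0.01 and 0.12, all with intervals across 0. The comparisons with the control share its 1 pool and, for the members, the pools that chose the family, so no test is given for them.

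**Figure D3:**
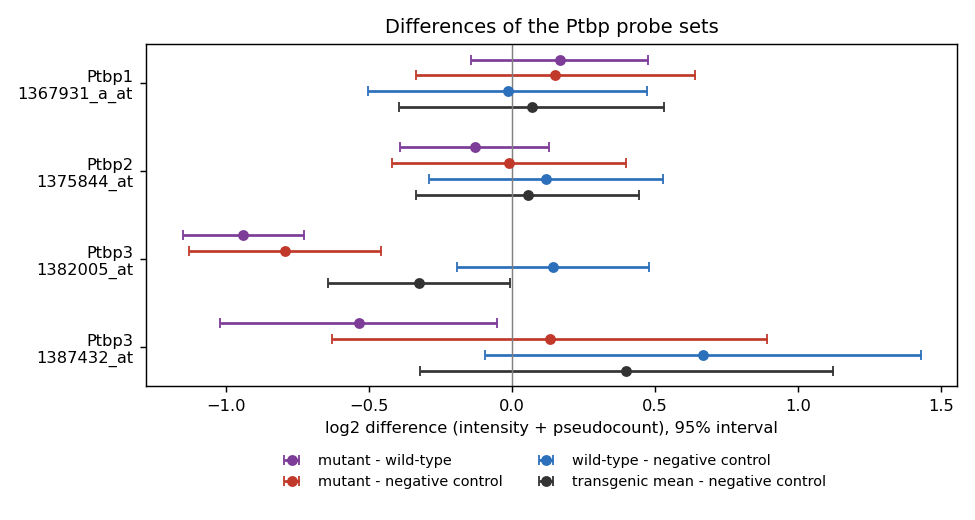
Log2 differences (x axis, of intensity plus a pseudocount of 8.25) of the 4 Ptbp probe sets (y axis) in 4 comparisons, marked by colour, with 95% intervals of limma's moderated estimate. On the bright Ptbp3 probe set the mutant pools differ by −0.94 from wild-type pools and by −0.79 from the negative control, while the wild-type difference of 0.15 has an interval across 0; values for the dim Ptbp3 probe set come from the fit without a filter.

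Genes that work with PTB proteins showed small differences between the transgenic groups. Of 22 partners and corepressors in a list, 19 were measured above the filter, 11 higher and 8 lower in mutant pools, and 0 passed by limma at an adjusted p under 0.05 (0 at an unadjusted p under 0.05, where 4.96% of all tested probe sets were). The median log2 difference was 0.02, against 0.01 over all 18625 tested probe sets, and it was −0.01 without mutant replicate 3 and −0.0049 with median centring. Srsf1, a splicing factor that promotes exon inclusion, had the lowest value with 2004 ± 134 in mutant and 2193 ± 119 in wild-type pools (log2 difference −0.13). Mbnl2, a muscleblind splicing factor, had the highest with 46.9 ± 8.97 and 41.9 ± 5.96 (0.13). Matr3, the nuclear matrix protein matrin and a PTB partner, was 3610.2 ± 128 and 3657.5 ± 195. Raver1 and Raver2, corepressors of PTB, lay below the filter.

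No neuronal splicing regulator in the list passed the test between the transgenic groups. Of 17 listed 12 were above the filter, with 11 lower and 1 higher in mutant pools, where 46.3% of all tested probe sets were lower; 0 passed by limma and 0 had an unadjusted p under 0.05. The median log2 difference was −0.09. Elavl3, a neuronal RNA-binding protein of the Hu family, was 854 ± 147 in mutant against 1050.5 ± 247 in wild-type pools (log2 difference −0.28). Rbfox2, which binds UGCAUG motifs near exons, was 661 ± 21.2 and 762 ± 111 (−0.19). Celf5 had the highest value, 2318 ± 91.1 and 2305 ± 90.7 (0.01). Once the actin ratio was a covariate, 8 of the 12 were lower and the median was −0.05. Without mutant replicate 2 all 12 were lower and the median was −0.14. The list shares Elavl3 and Elavl4 with the neuronal markers, of which 6 of 10 were higher in mutant pools with a median of 0.02. The summed intensity of those neuronal markers ran from 31127 to 36845 in mutant and from 33960 to 34583 in wild-type pools, and its part in the list's values was not tested.

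Genes whose exons or messenger RNA PTB proteins regulate were measured above the filter at 14 of 20. Of these 9 were higher and 5 lower in mutant pools, with a median log2 difference of 0.02, which was −0.02 without wild-type replicate 2. By limma 0 passed, and 1 of the 14 was at an unadjusted p under 0.05, where 4.96% of all tested probe sets were. It was Hif1a, a hypoxia-inducible transcription factor gene, at 2546 ± 178 in mutant and 2271 ± 138 in wild-type pools (log2 difference 0.16, limma adjusted p = 0.928). Fgfr2, a fibroblast growth factor receptor, had the highest value at 95.2 ± 5.74 and 84.5 ± 22.3 (0.19). Calca, the calcitonin gene, had the lowest at 23.7 ± 6.55 and 31.1 ± 8.53 (−0.30). Dlg4, which encodes the postsynaptic protein PSD-95 and has an exon that Ptbp1 and Ptbp2 repress, was 449 ± 26.6 and 446 ± 20.1. Src, with a neuronal exon under PTB control, was 533 ± 56.3 and 588 ± 100.5. Gene-level probe sets do not show whether such exons were included.

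Another list held Rbm20 beside Hnrnpl and Hnrnpll, the genes for L-type RNA-binding proteins, which resemble PTB in sequence. Of these 3 genes 2 were higher and 1 lower in mutant pools, with a median of 0.07. By limma 0 were past the threshold (0 at an unadjusted p under 0.05). Hnrnpl was 1477 ± 96.2 in mutant against 1415 ± 162 in wild-type pools, Hnrnpll 553 ± 25.4 and 598 ± 73.2, and Rbm20 39.5 ± 13.3 and 36.2 ± 13.2. Hnrnpl also stands in the list of partners. The median of these 3 was −0.07 once the actin ratio was a covariate, and ran from −0.06 to 0.10 when 1 pool was left out.

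**Figure D4:**
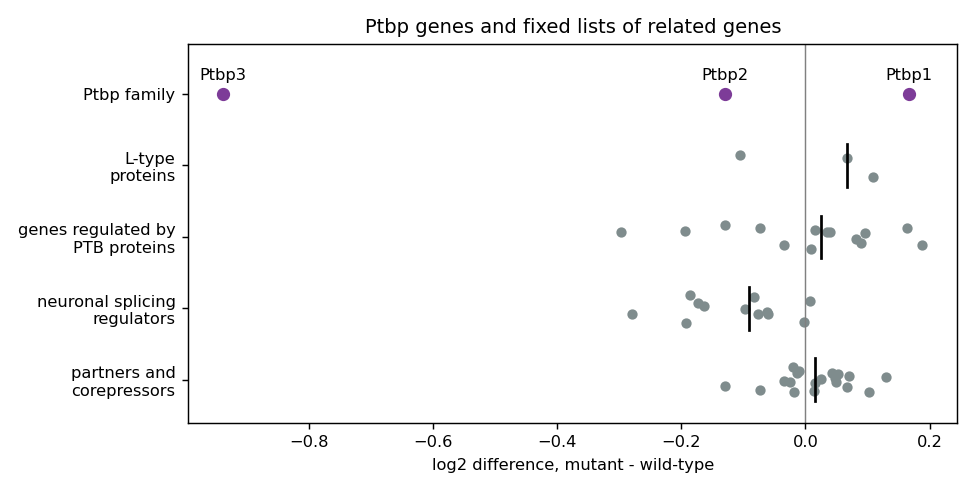
Log2 differences between mutant and wild-type pools (x axis) of the 3 Ptbp genes, each on its brightest probe set, and of genes in 4 lists of related genes (y axis; 1 point per gene, spread vertically for legibility; black bars are medians). Ptbp3 at −0.94 lies outside the range of the lists, which runs from −0.30 to 0.19, but it was chosen by this comparison and the lists were not.

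Markers of cell types were set beside the members, since Ptbp1 marks progenitors and Ptbp2 neurons. Of 7 progenitor genes above the filter, 3 were higher and 4 lower in mutant pools, with a median log2 difference of −0.04. Their summed intensity, over all 12 genes with a probe set, ran from 1023 to 1656 in mutant and from 1064 to 1538 in wild-type pools. In mutant pools 4 of 5 motor neuron genes were higher, as were 53.7% of all tested probe sets, with a median of 0.29 and summed intensities from 1181 to 1841 in mutant and from 944 to 1416 in wild-type pools. Isl1, a motor neuron transcription factor, had the highest value of these with 468 ± 104 against 337 ± 36.9, and 0 of the 5 passed by limma (1 at an unadjusted p under 0.05, where 4.96% of all tested probe sets were). Of 2 sensory ganglion genes above the filter, Runx1 was 111 ± 15.1 against 70.7 ± 24.2 (log2 difference 0.64, 95% interval 0.22 to 1.05). Pou4f1 was 168 ± 35.0 against 151 ± 49.0 (0.18, −0.26 to 0.62). By limma 0 of the 2 passed, with 1 at an unadjusted p under 0.05, where 4.96% of all tested probe sets were. Blood markers, of which 0 of 4 with a probe set passed the filter, summed to between 15.6 and 27.7 in mutant and between 13.9 and 33.9 in wild-type pools. The groups overlapped in the summed level of each of the 11 marker lists. Such a sum is carried by its brightest genes, as by Vim and Fabp7 among progenitors. Blood and microglia had 0 genes above the filter. Dorsal cord, endothelium, muscle, and cartilage and meninges had 1 each, so the overlap of those sums says little about cell types. What part motor neuron or sensory ganglion genes had in the Ptbp3 values was not tested.

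Genes next to Ptbp3 on its chromosome showed differences smaller than its own, though Ptbp3 was chosen by this comparison and its neighbours were not. Of the 10 nearest measured protein-coding genes, 5 on either side in the gene table of assembly GRCr8, 6 were lower and 4 higher in mutant pools, between −0.15 and 0.26 on the log2 scale. Ugcg, the glucosylceramide synthase gene on one side, was 106 ± 7.72 in mutant against 87.9 ± 14.5 in wild-type pools. Hsdl2 on the other side was 391 ± 8.77 and 418 ± 7.51, the 1 neighbour of the 10 whose groups did not overlap, where 2.96% of all tested probe sets did not. For 0 of the 10 did limma give an adjusted p under 0.05. The neighbours of Ptbp1 ran from −0.19 to 0.28 and those of Ptbp2 from −0.19 to 0.29, with 0 of 10 past the threshold in each.

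The genes nearest to Ptbp3 in pattern over the pools followed it only in part. Likeness was the root mean square difference of log2 values over the 9 arrays, each probe set centred on its own mean, and 13293 probe sets with a symbol were compared with the bright Ptbp3 probe set. A profile with no change at all lay 0.471 from it, the dim Ptbp3 probe set 0.390, Ptbp2 0.414 and Ptbp1 0.551. The nearest was C11h3orf70 at 0.257, at 15.9 ± 3.17 in mutant pools, 26.5 ± 4.83 in wild-type pools and 24.9 in the control, but its other probe set differed by 0.01 between the groups on the log2 scale. Uqcc2, an assembly factor of mitochondrial complex III, followed at 0.258, with 380.5 ± 10.9, 573 ± 138 and 469.7 in the same order. Next came Kif22, a kinesin gene, at 0.261, Sppl2a, an intramembrane protease gene, at 0.262, and Vgll3 at 0.266. In the same order, mutant pools differed from wild-type pools on the log2 scale by −0.50, −0.50 and −0.62, while the 3 other probe sets of Sppl2a ran from −0.15 to 0.36. Each of the 5 moved less than Ptbp3, and that they are low in mutant pools follows from how they were picked.

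**Figure D5:**
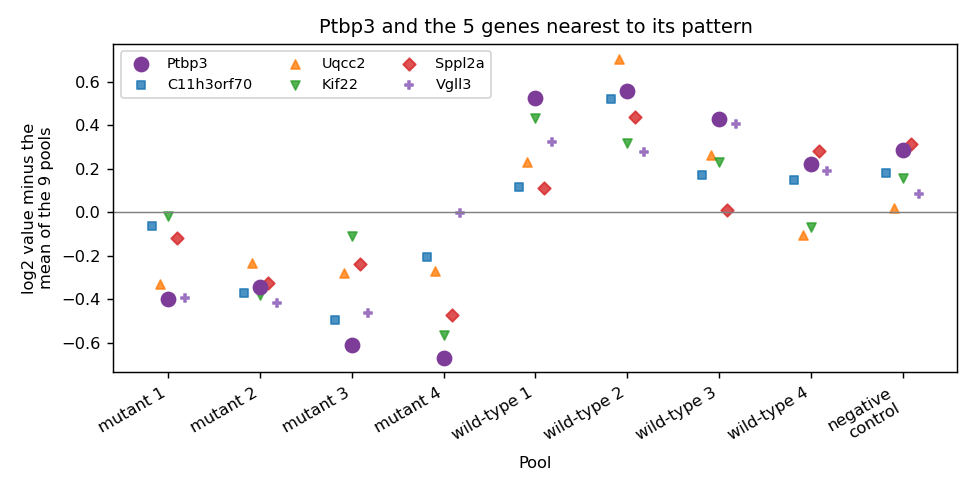
Log2 values minus the mean of the 9 pools (y axis) in each pool (x axis) for Ptbp3 (bright probe set, large circles) and the 5 genes nearest to its pattern (small marks, 1 shape per gene, set side by side within a pool). Ptbp3 lies below 0 in the 4 mutant pools and above 0 in the 4 wild-type pools and the negative control; the 5 genes lie 0.257 to 0.266 from it.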

How the data were processed

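Each deposited value is a linear intensity of 1 probe set on 1 array, summarised and scaled by the authors with software that was not given in the sources used here. From the values, all arrays share a mean of about 150.05 after trimming 2% at each end. No normalization was added. The 57 control probe sets served only for 3'/5' ratios.

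Values were taken to log2 after adding 8.25, the 25th percentile, and probe sets at or under the 40th percentile of mean log2 value were left out, leaving 18625. Fits used limma 3.58.1 in R 4.3.3 with an intensity trend, tested on simulated data, and Benjamini-Hochberg adjustment over all of them at 0.05. Mutant and wild-type pools were compared on 8 arrays, and comparisons with the negative control used 9. The number of arrays limits the precision.

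All Ptbp probe sets were named. From each list, on 1 probe set per gene, the lowest and highest members were named, with others as background chosen after their values were seen; neighbouring genes and within-pool ratios were also added then. The members and lists were chosen with earlier results of these data known. Alternatives covered normalization, pseudocount, filter, variance model, tag, replicate block, actin ratio and left-out arrays. Protein sequences and a Ptbp3 promoter were not used here.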

Additional observations from a re-analysis of the deposited data

Results flagged for a closer look

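The beta-actin 3'/5' ratio of wild-type replicate 2 stood apart from the other wild-type pools. At 19.2, against 9.20 in the nearest, its gap was 0.908 of the range of the 4 pools, above Dixon's 95% limit for 4 values. In that pool Ptbp3 was 1463 on the bright probe set and 18.0 on the dim one, the highest wild-type value of each. Of 18 groups of 4 values checked in this way, among them all Ptbp probe sets and ratios, this was the 1 past the limit, and chance flags about 1 in 20.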

How the results depend on the processing

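Between mutant and wild-type pools the log2 difference of the bright Ptbp3 probe set stayed between −1.01 and −0.84 over all 21 alternatives, that of Ptbp1 between 0.06 and 0.27 and that of Ptbp2 between −0.27 and −0.05; the dim Ptbp3 probe set ran from −0.85 to −0.22 over the 11 tried for it. Against the negative control, 0 of these 3 probe sets passed under any of the 19 alternatives, and the sign turned for Ptbp2 with the actin ratio as a covariate (−0.0068). The count of probe sets past the threshold between mutant and wild-type pools was 3. It was 5 with median centring, 1 without a filter and 1 with the tag as a covariate. By limma it was 0 without an intensity trend, 0 on the arrays with the tag alone and 0 once the actin ratio was a covariate, with 996, 682 and 681 at an unadjusted p under 0.05. Leaving out 1 array gave 1 to 3, with 1 without mutant replicate 1, wild-type replicate 1 or wild-type replicate 3. Against the negative control the counts were 0, with 581, 427 and 797 at an unadjusted p under 0.05 for the transgenic mean, mutant and wild-type pools, and some became 1, each time Atxn2l, a relative of ataxin-2. This held for the transgenic mean and for wild-type pools with median centring and with a pseudocount of 2.06. Without wild-type replicate 1 it held for them too (0 to 1 over left-out arrays). It also held for them when only transgenic pools with the tag were set against the control. The control lacks the tag, so tag and transgene cannot be told apart there. For mutant pools it held with a pseudocount of 2.06. The cause was not tested. Same-numbered replicates of the groups had correlations of their departures of 0.12, 0.09, −0.07 and 0.20, so the numbers were not taken as pairs. No call of a Ptbp probe set is read from these counts. A replicate block gave 3 calls and left the Ptbp3 difference at −0.94.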
